A study of Homo sapiens with 4 samples.

Results

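Chromosome 8 held 3461 of the 57601 peaks in 4 lists made from chromatin immunoprecipitation and sequencing (ChIP-seq) of BT549 cells, a human breast cancer line that lacks oestrogen receptor alpha. The members are all listed peaks on that chromosome, chosen by position alone. They comprise 1873 of 30571 Fra-1 peaks called over input DNA, 924 of 16133 Fra-1 peaks called over IgG, 660 of 10836 DDX5 peaks called over input and 4 of 61 DDX5 peaks called over IgG. The labels give no treatment, and 1 library was sequenced for each of Fra-1 (antibody R-20), DDX5 (ab21696), normal rabbit IgG and input DNA. There are no replicates, so no difference could be tested, and the 95% exact binomial (Clopper-Pearson) intervals beside shares reflect counting error alone. Positions are in hg19. Read depths are unknown. Without an hg19 annotation the genes near the peaks were not placed here, and positions stand in for names.

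AP-1 is a pair of Fos and Jun proteins that binds DNA, mostly at enhancers, and Fra-1 is one of its Fos members. The helicase DDX5 unwinds RNA and also serves transcription factors as a coactivator. Input DNA is sonicated chromatin sequenced without an antibody, so its read depth at a place follows the number of copies of that place in the genome, together with how readily the chromatin is recovered and aligned. The IgG library holds only chromatin that sticks without a specific antibody, so the number of copies bears on it through what sticks. Gain of the long arm of chromosome 8, which carries MYC, is among the most frequent copy changes in breast cancer, and loss of the short arm is also common.

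For each peak the lists give a pileup, which is how many ChIP fragments cover its summit, and a fold enrichment over the local control, with 1 added to both depths. Dividing the pileup plus 1 by this fold and taking off 1 gives back the local control level used for the peak. It is an input level in lists over input and an IgG level in lists over IgG. It cannot fall below a floor, the lowest level in a list, so places with little control DNA are not told apart from one another. The floor was 3.02 in the Fra-1 list over input, 2.68 in the DDX5 list over input and 2.67 in the Fra-1 list over IgG. One fragment of the input library counted 0.968 in the Fra-1 list and 0.859 in the DDX5 list, which puts both floors over input at 3.12 input fragments. Of the levels above the floor and under 15, 53.5% in the Fra-1 list over input were whole numbers of fragments. It was 48.8% for DDX5 over input and 75.8% for Fra-1 over IgG. The other levels were not, so a level need not be a count of control fragments at the peak itself.

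The median control level of chromosome 8 was above that of the other autosomes, on both arms and in both control libraries. At Fra-1 peaks over input the median input level was 6.78 (quartiles 5.46 and 8.32) on chromosome 8 and 4.32 (3.48 and 5.81) on the other autosomes, 1.57 times as high. At DDX5 peaks over input it was 6.01 (4.67 and 7.38) against 3.74 (2.92 and 5.15), or 1.61 times. The Fra-1 and DDX5 lists read the same input library, and in both the chromosome 8 median came to 7.0 input fragments. IgG, a separate library, had a median level of 8.0 (6.0 and 11) at Fra-1 peaks on chromosome 8 and 5.0 (3.80 and 8.0) on the other autosomes, or 1.60 times. More copies of the chromosome and a better recovery of its chromatin cannot be told apart in these levels, which were read at peaks only.

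Among chromosomes 1 to 22 and X, chromosome 8 had the highest median input level in both lists over input. Chromosome 20 came next, with 6.0 at Fra-1 peaks and 5.49 at DDX5 peaks, and its quartiles at Fra-1 peaks, 4.84 and 7.74, overlapped those of chromosome 8. In IgG the medians of chromosomes 8 and 20 were both 8.0. Over the 23 chromosomes the median input level and the median IgG level at Fra-1 peaks went together (Pearson's r 0.919, Spearman's rho 0.864). These points share the Fra-1 library and its peaks, and the correlation is given as a description.

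**Figure D1:**
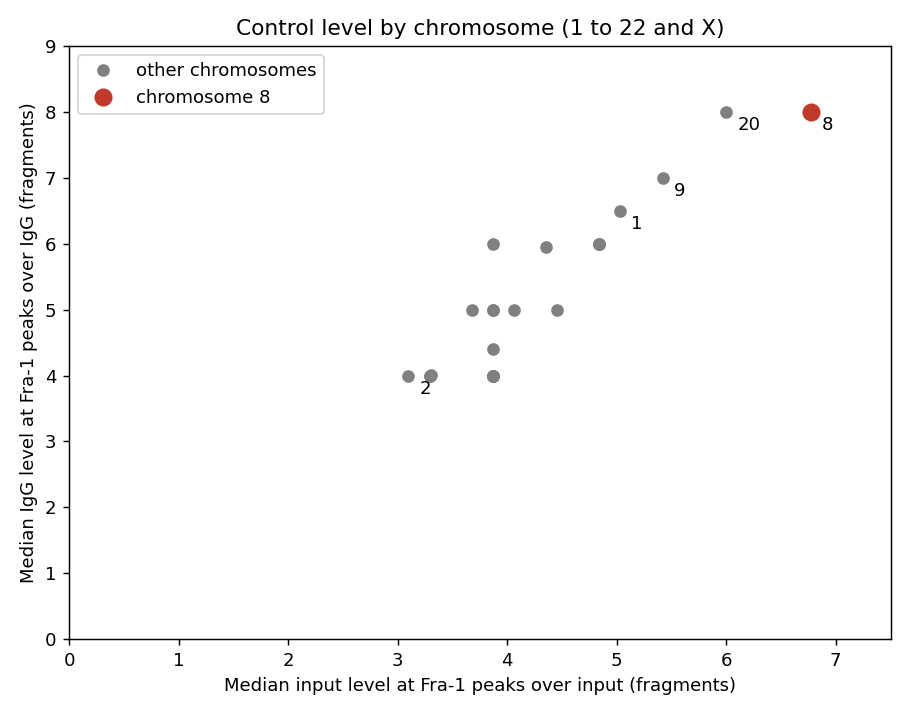
Median control level of each chromosome (1 to 22 and X) at Fra-1 peaks, with input on the x axis and IgG on the y axis, both in fragments at the scale of the list. Chromosome 8 (red) is farthest to the right, at 6.78, and shares the highest IgG level, 8.0, with chromosome 20.

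Peaks at the floor were nearly missing from chromosome 8. In the Fra-1 list over input 3 of 1873 peaks (0.160%, interval 0.0330% to 0.467%) sat at the floor, where 15.3% of the whole list did. In the DDX5 list over input it was 11 of 660 (1.67%, 0.835% to 2.96%), against 17.7% of the list. For Fra-1 over IgG it was 2 of 924 (0.216%, 0.0262% to 0.780%), against 9.2% of the list. Chromosome 20 had few as well, with 0.784%, 0.183% and 1.81% in the same order. All of the 16 floor peaks of chromosome 8 lay on the long arm. On the short arm the count was 0 of 573, 0 of 230 and 0 of 252 in the same order, which allows shares of up to 0.642%, 1.59% and 1.45%.

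The arms, divided at 45.6 Mb, had much the same level. At Fra-1 peaks over input the median was 6.58 (5.17 and 7.74) on the short arm, with 573 peaks, and 6.78 (5.63 and 8.71) on the long arm, with 1300. DDX5 peaks over input gave 5.77 (4.81 and 6.86) for 230 short-arm peaks and 6.01 (4.63 and 7.72) for 430 long-arm peaks. In IgG the order was the other way round, with 9.0 (6.0 and 12.0) on the short arm and 8.0 (6.0 and 11) on the long arm. The quartile ranges of the arms overlapped in each list. The longest stretch without a peak start in any list, 3.80 Mb from 43046439 to 46848388, spanned the centromere.

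The control level was above that of the other autosomes along the whole chromosome wherever a bin held enough peaks. In bins of 5 Mb with at least 10 peaks, the median input level at Fra-1 peaks exceeded the 4.32 of the other autosomes in 29 of 29 bins, where 45.6% of all autosomal bins did. The same held for 24 of 24 bins at DDX5 peaks (53.5% of all autosomal bins) and for 25 of 25 bins of IgG level at Fra-1 peaks (48.4%). At Fra-1 peaks over input, 27 of the 29 bins also lay above 5.23, the level that 90% of bins on other autosomes stay under. It was 21 of 24 bins for DDX5 over input (4.98) and 21 of 25 for IgG (7.0). The lowest IgG bin, from 70 to 75 Mb, lay above 64.4% of the bins on other autosomes. Leaving aside the bin from 85 to 90 Mb, these medians at Fra-1 peaks over input ran from 4.84 to 7.74, and no neighbouring pair with at least 10 peaks each differed by more than 1.33 times. The IgG medians ran from 5.70 to 11.

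At Fra-1 peaks over input the lowest bins were those from 0 to 5 Mb and from 135 to 140 Mb. From 0 to 5 Mb, at the tip of the short arm, the median input level was 4.84 at 22 Fra-1 peaks and 4.69 at 10 DDX5 peaks, and IgG stood at 7.0 over 6 peaks. From 135 to 140 Mb on the long arm it was 5.09 at 27 Fra-1 peaks and 3.60 at 7 DDX5 peaks, under the 3.74 of the other autosomes, with an IgG level of 7.60 at 10 peaks. The third lowest at Fra-1 peaks over input was 5.66, from 10 to 15 Mb. The highest there after the bin from 85 to 90 Mb were 7.74 from 80 to 85 Mb, 7.74 from 120 to 125 Mb and 7.36 from 50 to 55 Mb. Among DDX5 bins with at least 10 peaks the highest after it were 7.33 from 120 to 125 Mb and 6.95 from 45 to 50 Mb, and the lowest after the tip of the short arm were 4.82 from 15 to 20 Mb and 4.98 from 105 to 110 Mb. The 3 DDX5 peaks from 110 to 115 Mb had a median of 9.44.

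**Figure D2:**
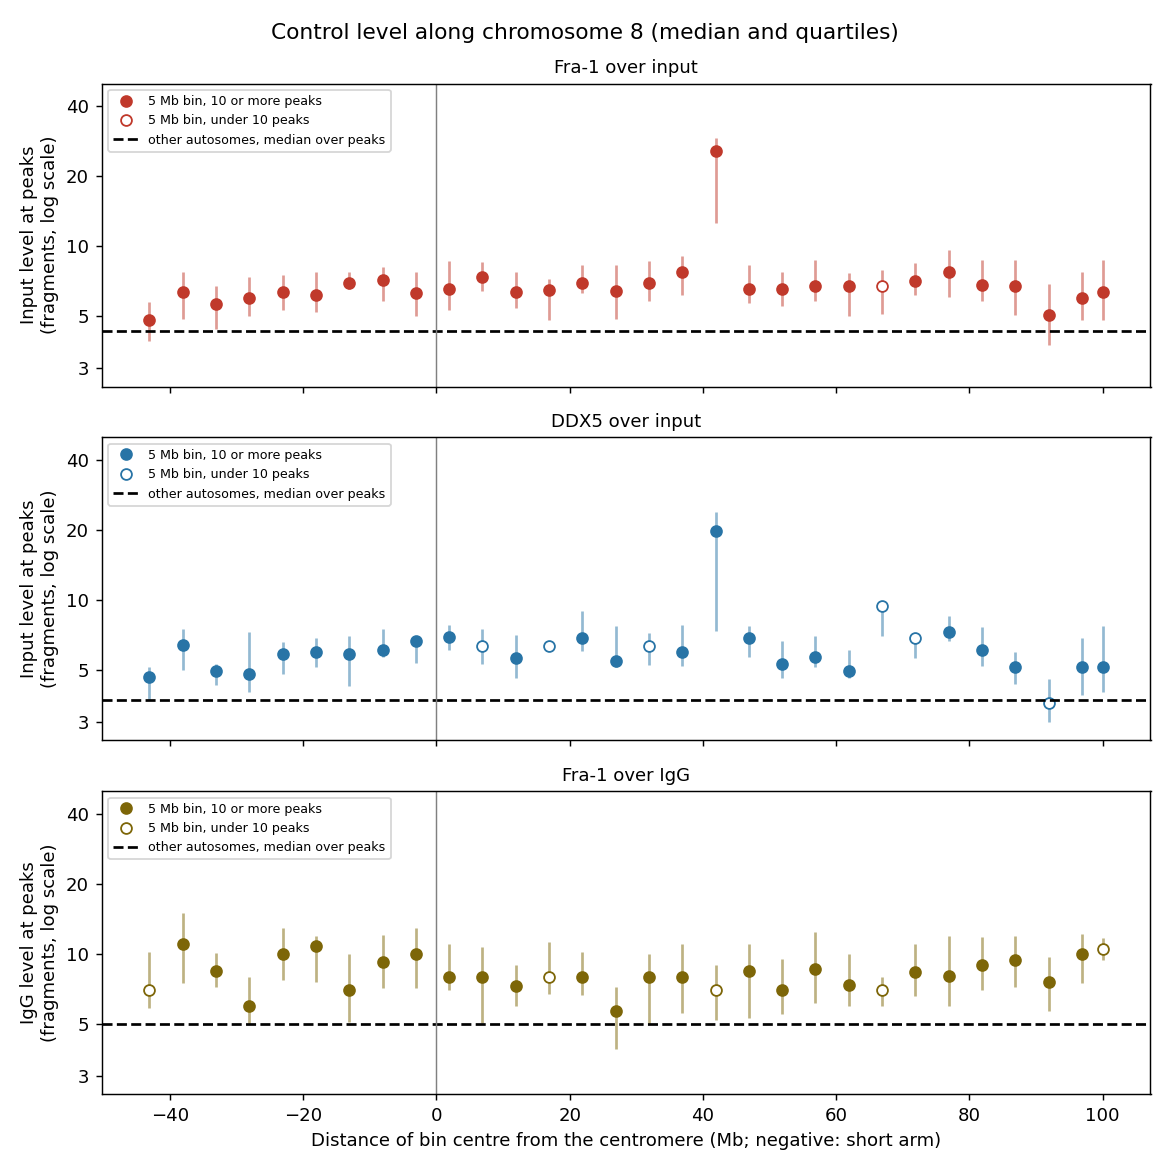
Control level at peaks (log axis, fragments at the scale of each list) in 5 Mb bins along chromosome 8, by distance from the centromere. Points are bin medians, open where a bin held under 10 peaks, bars run from the lower to the upper quartile, and the dashed line is the median over peaks of the other autosomes. Every filled point lies above the line. The bin from 85 to 90 Mb stands out in both lists over input, at 25.6 and 19.9. Its IgG level of 7.0 was read at 7 peaks, all outside the stretch from 86555400 to 86840786 where input was high.

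The level of IgG varied along the chromosome in another order than that of input. Among bins with at least 10 peaks the highest in IgG were 11 from 5 to 10 Mb, 10.8 from 25 to 30 Mb and 10.0 from 20 to 25 Mb, from 40 to 45 Mb and from 140 to 145 Mb. The lowest were 5.70 from 70 to 75 Mb, 6.0 from 15 to 20 Mb and 7.0 from 30 to 35 Mb and from 95 to 100 Mb. Between 15 to 20 Mb and 20 to 25 Mb the IgG median differed by 1.67 times, where the input medians at Fra-1 peaks were 6.0 and 6.37, and from 25 to 30 Mb to 30 to 35 Mb it went from 10.8 to 7.0. Over the 25 bins with at least 10 peaks in both Fra-1 lists, the bin medians of input and IgG had a Pearson's r of -0.0668 and a Spearman's rho of -0.171.

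Both control levels were higher at peaks of higher pileup. Over the 924 Fra-1 peaks over IgG, the pileup and the IgG level had a rho of 0.537 across peaks, and over the 1873 peaks over input the pileup and the input level had a rho of 0.580. At the 877 Fra-1 peaks found with both controls, the input level and the IgG level of the same place had a rho of 0.233. A place with a higher control level needs a higher pileup to be listed. The rho values of pileup and level thus partly follow from the calling of peaks. Peaks are not independent replicates, and each pair of values shares the Fra-1 library.

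Peaks of like pileup had lower folds on chromosome 8. The level is computed from pileup and fold, so at like pileup a higher level is a lower fold by arithmetic, and these values restate the level on the scale of the fold. Each list was divided into 4 classes of pileup at its quartiles. In the highest class of Fra-1 peaks over input, 52 to 344 fragments, the median fold was 10.4 at 633 peaks on chromosome 8 and 14.0 at 6880 peaks on the other autosomes, and the input levels were 7.74 and 4.84. In the lowest class, 11 to 21, the folds were 3.34 and 3.86 and the levels 4.47 and 3.64. For DDX5 over input the highest class had folds of 4.01 and 5.09, and for Fra-1 over IgG 9.58 and 11.7. Within classes of pileup the level on chromosome 8 was 1.20 to 1.60 times that of the other autosomes over all 3 lists.

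**Figure D3:**
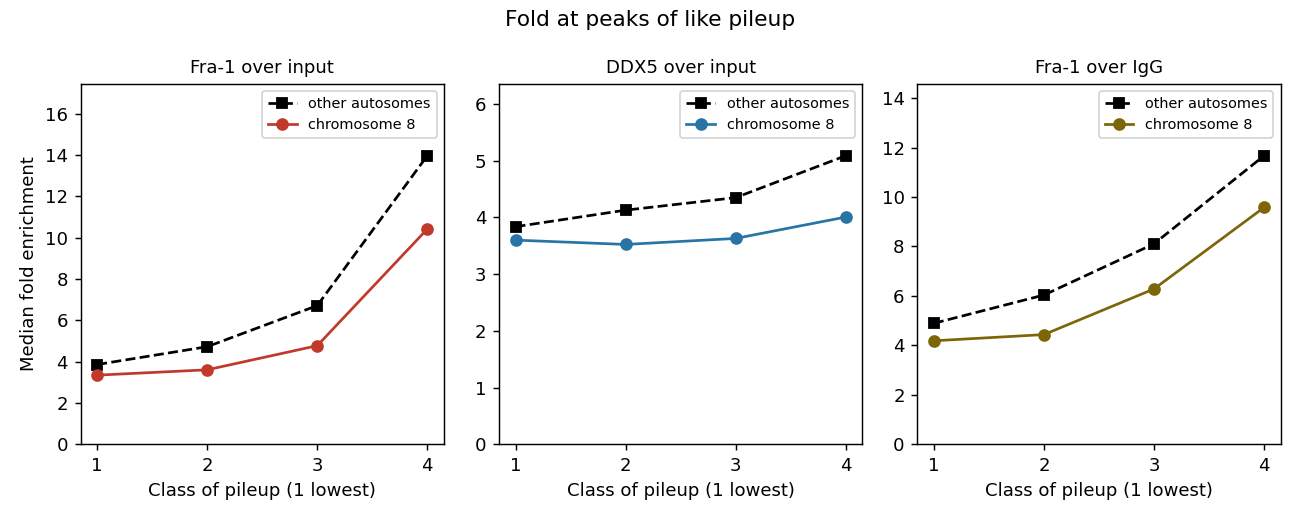
Median fold enrichment in 4 classes of pileup, from lowest to highest, for chromosome 8 (coloured circles) and the other autosomes (black squares) in each of 3 lists. Classes are divided at the quartiles of the whole list. Chromosome 8 lies under the other autosomes in each class, which restates its higher control level, for Fra-1 over input at 10.4 against 14.0 in the highest.

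Taken without regard to pileup, chromosome 8 peaks were deeper and less enriched than those of the other autosomes together. Fra-1 peaks over input had a median pileup of 37.0 and a median fold of 4.63, against 29.0 and 5.47 on the other autosomes. DDX5 peaks over input had 25 and 3.76, against 20 and 4.18, and Fra-1 peaks over IgG 59.2 and 6.51, against 42.4 and 6.84. Folds of at least 8 were reached by 466 of 1873 Fra-1 peaks over input (24.9%, 22.9% to 26.9%), under the 29.5% of the whole list. They were reached by 337 of 924 Fra-1 peaks over IgG (36.5%, 33.4% to 39.7%; 38.8% of the list), by 10 of 660 DDX5 peaks over input (1.52%, 0.729% to 2.77%; 2.28% of the list) and by none of the 4 DDX5 peaks over IgG (4.92% of the list). The intervals of the Fra-1 list over IgG and the DDX5 list over input hold the share of their whole list. Chromosome 20 had median folds of 4.37, 6.30 and 3.85 and 8-fold shares of 21.2%, 33.0% and 0.550%, for Fra-1 with input, Fra-1 with IgG and DDX5 with input as the control, none above those of chromosome 8 except the DDX5 fold. Widths were alike, with medians of 318 bp on chromosome 8 and 317 bp elsewhere for Fra-1 over input.

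Peaks were also packed more densely than average. Chromosome 8 held 12.8 Fra-1 peaks over input per Mb, against 10.2 over the other autosomes together, 6.32 Fra-1 peaks over IgG against 5.39, and 4.51 DDX5 peaks over input against 3.61. Among the 23 chromosomes it ranked 5, 6 and 8 in these densities. Chromosome 20, with nearly as high a level, held 18.2, 7.02 and 8.66 per Mb. Over chromosomes, level and density had a rho of 0.683 for Fra-1 over input, 0.621 for Fra-1 over IgG and 0.481 for DDX5 over input. Within chromosome 8, over bins outside 85 to 90 Mb, the rho was 0.288 (28 bins), 0.126 (25 bins) and 0.210 (23 bins).

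Dense places were shared in part. Both lists over input were densest in the last bin and had 20 to 25 Mb among their 3 fullest bins, and Fra-1 over IgG did not. Fra-1 peaks over IgG gathered from 115 to 135 Mb on the long arm, where 266 of the 924 lay (28.8%, 25.9% to 31.8%). Of the Fra-1 peaks over input 433 (23.1%, 21.2% to 25.1%) were there, and of the DDX5 peaks 89 (13.5%, 10.97% to 16.3%). The fullest whole bin of both Fra-1 lists was 125 to 130 Mb, with 131 and 80 peaks. Of the 131, 45 reached 8-fold, beside 24.9% of the chromosome's Fra-1 peaks over input and 29.5% of the whole list. The next fullest bins of Fra-1 over input were 20 to 25 Mb with 126 and 120 to 125 Mb with 117, and those of Fra-1 over IgG 115 to 120 Mb with 73 and 120 to 125 Mb with 66. The emptiest bin in these 3 lists was 110 to 115 Mb, with 9 Fra-1 peaks over input, 2 over IgG and 3 DDX5 peaks. For Fra-1 over input the bins at 0 to 5 Mb, with 22, and 60 to 65 Mb, with 24, came next.

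DDX5 peaks gathered at the tip of the long arm, which is known to be rich in genes. From 140 Mb to the last listed peak, 6.28 Mb in all, lay 148 of 660 DDX5 peaks over input (22.4%, 19.3% to 25.8%), 164 of 1873 Fra-1 peaks over input (8.76%, 7.51% to 10.1%) and 35 of 924 Fra-1 peaks over IgG (3.79%, 2.65% to 5.23%). The place was picked after the values were seen and both Fra-1 lists share a library, so these intervals only describe the counts. In the last 1.28 Mb DDX5 reached 62.6 peaks per Mb and Fra-1 over input 55.6, and Fra-1 over IgG held 4.69. Of the 164 Fra-1 peaks over input, 32 (19.5%) were called again over IgG. From 115 to 135 Mb it was 256 of 433 (59.1%), and over the whole list 50.5%. The input level at the tip was not raised above the rest of the chromosome, at 6.0 for Fra-1 and 5.15 for DDX5. The IgG level there was 10.0 at the 35 Fra-1 peaks over IgG, above the 8.0 of the chromosome, and was not read at peaks not called over IgG. Fra-1 peaks over input had a median fold of 3.94 at the tip and 5.34 from 115 to 135 Mb. Of them 18 of 164 and 143 of 433 reached 8-fold, beside 29.5% of the whole list. The part of level and of fold in the low share called again was not tested. By count the fullest DDX5 bins were this last one with 80 peaks, 140 to 145 Mb with 68 and 20 to 25 Mb with 64. The second dense place of DDX5 was 20 to 30 Mb on the short arm, with 102 peaks (15.5%, 12.8% to 18.4%).

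**Figure D4:**
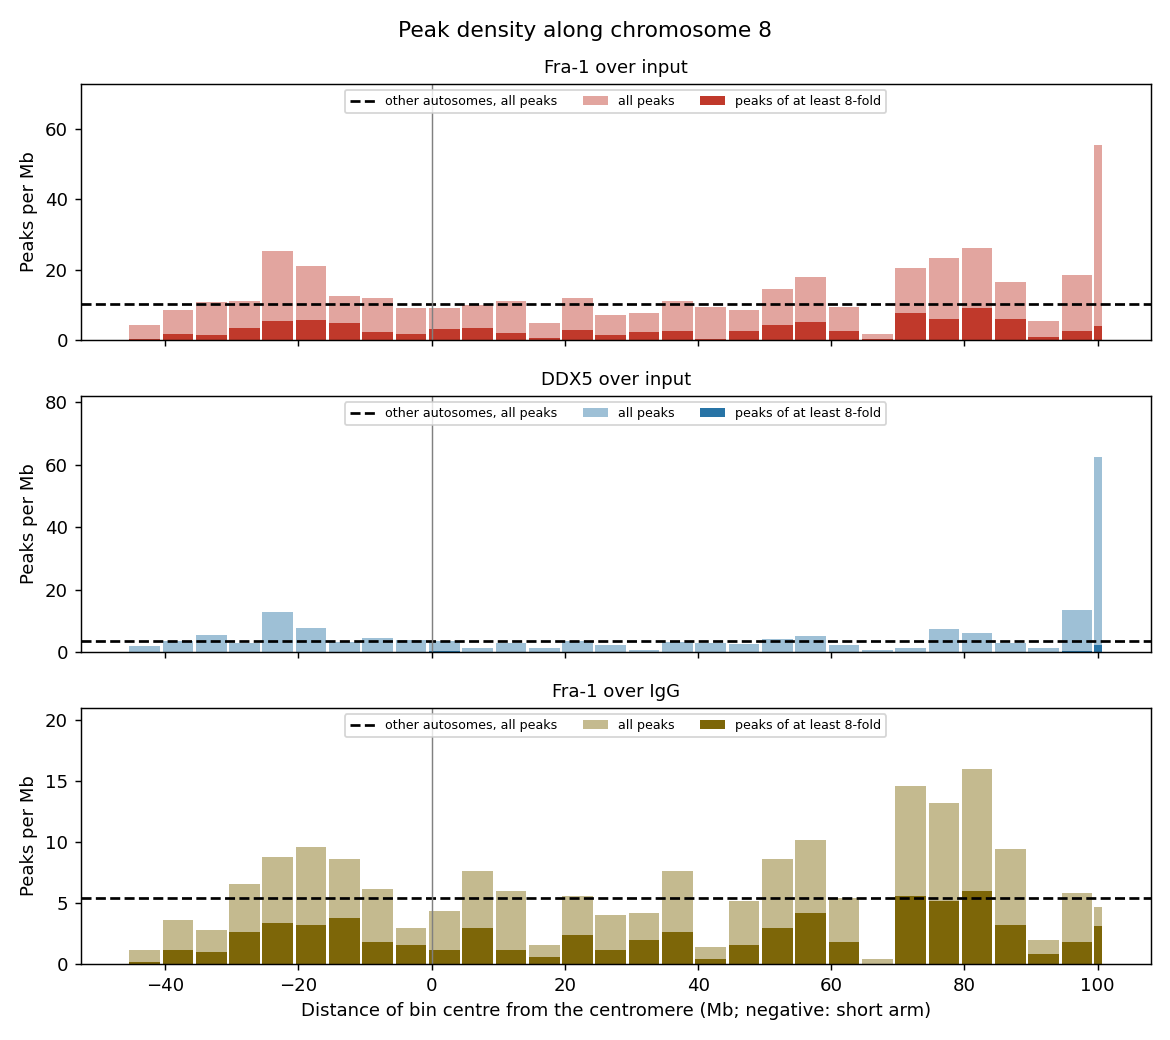
Peaks per Mb in 5 Mb bins along chromosome 8 by distance from the centromere (the last bin covers 1.28 Mb and is drawn narrower), for all peaks (pale) and peaks of at least 8-fold (dark), with the density of all peaks on the other autosomes as a dashed line. Fra-1 over IgG is highest in the distal long arm, at 125 to 130 Mb, and both lists over input are highest in the last bin, at 55.6 and 62.6 per Mb.

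A stretch of 285 kb from 86555400 to 86840786 held the densest run of high input levels. It was marked off by Fra-1 peaks over input with a level above 15, and its 34 such peaks had levels from 17.2 to 50.3 with a median of 28.0, which is 6.48 times that of the other autosomes. The 10 DDX5 peaks there had levels of 19.2 to 34.3, with a median of 22.7 (6.08 times). Folds were low, from 1.62 to 2.56 for Fra-1 and from 1.90 to 2.92 for DDX5, while pileups were high, with medians of 59.5 and 50.5. Neither list over IgG held a peak in the stretch, so the IgG level was not read there. Of the 34 Fra-1 peaks 3 overlapped a DDX5 peak, beside 21.8% of the whole Fra-1 list over input. The 13 Fra-1 peaks over input in the rest of that bin had a median level of 5.81. The bins on either side stood at 7.74 and 6.56 for Fra-1 over input and at 6.0 and 6.86 for DDX5.

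In all, 44 Fra-1 peaks over input on the chromosome had an input level above 15, those 34 among them. No such count is given here for other chromosomes. The highest level lay at 46848393 to 46848592, just beyond the centromere, at 205, where a pileup of 302 gave 1.47-fold. The DDX5 list had its highest level, 182, at the same place, where a pileup of 280 gave 1.54-fold. The second highest of both lists was at 70602237 to 70602628, with 56.1 for Fra-1 (2.07-fold) and 48.9 for DDX5 (2.60-fold). No peak over IgG on the chromosome came above an IgG level of 34.0, which was at 22249829 to 22251458, where a Fra-1 pileup of 148 gave 4.25-fold.

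The leading Fra-1 peaks stood on input levels of 5.23 to 9.68, on either side of the chromosome's median of 6.78. The highest −log10 q over input was at 49502540 to 49503270 on the long arm, with a pileup of 278 over an input level of 6.20, or 38.8-fold. At 142036772 to 142037348 the pileup was 284 over 7.36 (34.1-fold), and at 132868794 to 132869807 it was 300 over 9.68 (28.2-fold). The fourth, at 51956414 to 51956912, had 279 over 7.55 (32.7-fold), and the fifth, at 29522404 to 29523392 on the short arm, 249 over 5.23 (40.1-fold). Over IgG each of the 5 was listed too, at 8.51-fold to 13.3-fold, on IgG levels of 19.0 to 28.0, well above the median of 8.0. DDX5 was listed over input at 4 of them, at 3.74-fold to 5.08-fold, and not at 132868794.

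Over IgG the leading Fra-1 peak of the chromosome was at 126231477 to 126231894, with a scaled pileup of 202 over an IgG level of 5.0, or 33.8-fold. Over input it had 25.1-fold, and no DDX5 peak was listed there. It stood out from the other leading peaks by its low IgG level, as the peaks at 132868820, 79933113, 41649811 and 143781112 had levels of 10.0 to 19.0 and folds of 13.3 to 19.5. DDX5 over input was listed at 41649811 (3.55-fold) and 143781112 (3.32-fold).

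The leading DDX5 peaks over input were weaker and on ordinary levels. They lay at 33370941 to 33371479 (pileup 107 over 7.55, 12.6-fold), 48649661 to 48650870 (91.0 over 5.47, 14.2-fold), 144897629 to 144898577 (68.0 over 4.98, 11.5-fold), 48647378 to 48648157 (71.0 over 7.04, 8.96-fold) and 22102007 to 22103124 (66.0 over 6.35, 9.12-fold). Fra-1 was listed at each of the 5 over input, at 5.39-fold to 10.9-fold, but at none over IgG. A DDX5 peak over IgG was listed at 144897629 only, at 2.15-fold.

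All 4 DDX5 peaks over IgG lay in the distal 2 bins of the long arm. The median IgG level of the 55 DDX5 peaks over IgG on the other autosomes was 14.0, and 3 of the 4 were above it. They were at 145748095 to 145748498 (pileup 62.9 over 24.0, 2.55-fold), 144898072 to 144898279 (67.8 over 31.0, 2.15-fold), 144358202 to 144358408 (33.9 over 13.0, 2.49-fold) and 145747703 to 145748034 (57.9 over 29.0, 1.96-fold). Each overlapped a DDX5 peak over input, those at 145747703 and 145748095 the same one. In the other direction 3 of 660 DDX5 peaks over input were called again over IgG (0.455%, 0.0938% to 1.32%), beside 0.508% of the whole list. On the short arm it was 0 of 230, which allows up to 1.59%.

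A slightly smaller share of Fra-1 peaks over input was called again over IgG than elsewhere. On chromosome 8 it was 877 of 1873 (46.8%, 44.5% to 49.1%), beside 50.5% of the whole list and 50.8% (50.2% to 51.4%) on the other autosomes. Leaving out the bin from 85 to 90 Mb it was 47.6% (45.3% to 49.97%). The share was 42.4% (38.3% to 46.6%) on the short arm and 48.8% (46.0% to 51.5%) on the long arm. Peaks called again had a median fold over input of 8.29 on an input level of 7.36, and those not called again 3.60 on 6.0. Of the Fra-1 peaks over IgG, 898 of 924 (97.2%) overlapped one over input, beside 97.7% on the other autosomes. The 26 on chromosome 8 that did not overlap had a median IgG level of 3.97 and a median pileup of 23.9.

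Common sites of the antibodies made up a share close to that of the whole list. A Fra-1 peak over input lay at 432 of the 660 DDX5 peaks (65.5%, 61.7% to 69.1%), beside 61.8% of the whole list, and a DDX5 peak lay at 420 of the 1873 Fra-1 peaks (22.4%, 20.6% to 24.4%), beside 21.8%. Both intervals hold the share of the whole list. Without the bin from 85 to 90 Mb the DDX5 share was 66.5%, and its interval (62.7% to 70.1%) did not hold the 61.8%. That bin was left out after its values were seen, so no difference is read from this. The arms were alike, with 63.5% (56.9% to 69.7%) and 66.5% (61.8% to 71.0%) for DDX5. Between the summits of common peaks the median distance was 67.0 bp, and 260 of 432 pairs (60.2%) were within 100 bp. These distances were taken on chromosome 8 only, so they are not a trait of it. DDX5 peaks with a Fra-1 peak had a median input level of 6.52 and those without 4.63. On the other autosomes these were 4.22 and 3.43. Both lists were called over the same input library.

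With Fra-1 peaks called over IgG the overlap was larger on chromosome 8 than on the rest. Such a Fra-1 peak lay at 122 of the 660 DDX5 peaks over input (18.5%, 15.6% to 21.7%), against 12.9% (12.3% to 13.6%) on the other autosomes. Of the 877 Fra-1 peaks found with both controls 116 had a DDX5 peak (13.2%, 11.1% to 15.7%), against 9.25% (8.77% to 9.74%) elsewhere. Those not called over IgG had one in 304 of 996 (30.5%, 27.7% to 33.5%), against 34.6% (33.8% to 35.4%). Whether the control levels of the chromosome have a part in these shares was not tested.

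The strongest common site, by the sum of its ranks in both lists over input, was at 41655334 to 41656380 on the short arm, with 26.5-fold for Fra-1 and 6.42-fold for DDX5. It was followed by 128866127 to 128867231 (23.9-fold and 4.51-fold), 49502540 (38.8-fold and 5.08-fold), 129188652 to 129189614 (28.7-fold and 4.97-fold) and 51956414 (32.7-fold and 4.65-fold). Fra-1 was called over IgG at all 5, at 7.62-fold to 10.3-fold on IgG levels of 21.0 to 28.0, and DDX5 over IgG at none. The Fra-1 peak at 128866127 stood on an input level of 10.6, the highest of these 5.

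Fra-1-only sites were of like strength. After 132868794 they were led by 95254154 to 95255001 (28.7-fold over input, 12.3-fold over IgG), 129799821 to 129800348 (34.1-fold and 11.8-fold), 81962843 to 81963226 (25.7-fold and 13.8-fold) and 83151148 to 83151622 (26.3-fold and 11.6-fold), all on the long arm. DDX5-only peaks were weak. The leading 5 were at 145313606 (8.15-fold), 145542216 (5.86-fold), 145749807 (5.38-fold), 59572125 (4.83-fold) and 143715985 (6.10-fold), and 4 of them lay beyond 140 Mb. The peak at 145313606 was one of the 11 DDX5 peaks of the chromosome at the floor, with an input level of 2.68, and none of the 5 was called over IgG.

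Peaks also formed local groups, joined here where at most 12.5 kb apart. The fullest Fra-1 group over input held 24 peaks from 124502359 to 124576703. Of these 3 reached 8-fold, 6 were called over IgG and 15 overlapped DDX5, beside 29.5%, 50.5% and 21.8% of the whole list. The group was picked for its peak count. The input level of this group was 7.36 to 15.5, with a median of 9.25, above the 7.74 of its bin. A DDX5 group of 19 peaks covered the same stretch, from 124510691 to 124576661, with a median fold of 3.73 on a level of 7.38. Another 19 DDX5 peaks lay from 22224630 to 22299122 (3.18-fold, level 6.18). At 11697760 to 11749777 on the short arm were 16 Fra-1 peaks over input and, from 11694945, 15 DDX5 peaks, on levels of 5.95 and 5.15. The fullest Fra-1 group over IgG, 10 peaks from 67419649 to 67448380, had a median fold of 6.82, and 1 of its peaks overlapped DDX5. In all the chromosome had 1079 Fra-1 groups over input, 581 over IgG and 400 DDX5 groups, of which 52, 15 and 16 held 5 peaks or more.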

How the data were processed

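Per the submitters' processing notes, CASAVA 1.8, Bowtie 0.12.9, HOMER and the build hg19 were used, with no role given. The peak caller is not given in the sources used here. Each deposited list compares 1 ChIP with 1 control library. Per the file headers the deposited signal is the pileup, and the deposited fold enrichment is a ratio. From its values, the pileup is in whole fragments over input and scaled down over IgG. Deposited −log10 values of p and q sit under damaged headers and were told apart by their values. These values are the authors' own and were used to describe and rank peaks. Levels of lists over input and over IgG have different scales, so their sizes were compared within a list only. Between these lists they were related by correlation, over chromosomes, bins and peaks.

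Control levels, arms, 5 Mb bins and overlaps of at least 1 bp were computed with scipy 1.17.1, pandas 2.3.3 and numpy 2.4.6 under Python 3.11.15, figures were drawn with matplotlib 3.10.9, and the code was tested on simulated data. Chromosome lengths were taken as the last peak end. Named were the 5 peaks of highest −log10 q in each list, all 4 DDX5 peaks over IgG, the 5 common sites with the lowest rank sums, the 5 leading peaks of each antibody that lacked the other, the 3 highest, lowest, fullest and emptiest bins and neighbouring bins 1.5 times apart in input level. The members and lists were chosen with earlier results of these data known. The high stretch, the groups, the 3 dense places, the highest levels and the classes of pileup were picked after the values were seen. Planned counts of peaks near genes were not run for want of an hg19 annotation here. Alternatives were other thresholds, bins, overlap rules and summaries of the level.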

Additional observations from a re-analysis of the deposited data

How the results depend on the processing

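Of 89 alternatives 56 gave a value inside the 95% interval of the one reported (for peak counts, within 1.5 times) and 33 did not. Median levels on chromosome 8 stayed above those of the other autosomes under each alternative run for them. The ratio of their median levels (Fra-1 over input 1.57, Fra-1 over IgG 1.60, DDX5 1.61) became 1.40, 1.34 and 1.40 without peaks at the floor, which drops low levels by construction. It became 1.44, 1.38 and 1.40 at peaks whose level was not a whole number of control fragments, an alternative chosen after seeing the data. For Fra-1 over input it was 1.68 at 8-fold and 1.68 over bins, for Fra-1 over IgG 1.5 above the median −log10 q and 1.51 with means, and for DDX5 1.46 with means and 1.35 at peaks without Fra-1. The ratio of long to short arm, 1.03 for Fra-1 over input, became 1.14 at 8-fold, 1.13 at peaks without DDX5 and 1.20 with means. For DDX5, 1.04, it became 0.784 at 8-fold (10 peaks) and 1.18 with means. The DDX5 ratio was also under 1 at peaks without Fra-1 (0.951), at levels that were not whole numbers of fragments (0.951) and over bins (0.968). In the rest it was 1 or more. For Fra-1 over IgG, 0.889, the 9 alternatives gave 0.833 to 0.985. The order of the arms is thus not settled. The share of DDX5 peaks with Fra-1, 65.5%, became 35.5% with centres within 100 bp, 0% with the lists over IgG (4 peaks) and 30% at 8-fold (10 peaks), and that of Fra-1 called again, 46.8%, became 43.2% with centres within 100 bp and 99.1% at 8-fold. At 6-fold in place of 8-fold the shares were 34.3%, 56.4% and 4.70%. Shares under the alternatives were computed on chromosome 8 only. At 8-fold 466, 337, 10 and 0 peaks were left, and above the median −log10 q 946, 530, 354 and 0 (Fra-1 over input and IgG, DDX5 over input and IgG). Thresholds and stricter overlaps lower a count by construction; for every other move the cause was not tested. In 2 Mb bins 98.3% and with 1 peak per 10 kb 96.6% of bins lay above the other autosomes for Fra-1 over input. No paired analysis was possible because each group has 1 library. Absolute depth and copies per cell cannot be read from these levels, and the floor hides losses.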
